A study of Mus musculus with 65 samples.

Results

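The retroelement restriction factors Samhd1, Trex1, Isg20, Apobec3, Mov10, Zc3hav1, Rsad2, Bst2 and Ifitm3 are mouse genes for proteins that limit retroviruses, other viruses and, for several of them, the mobile elements of the cell's own genome. They were taken by symbol from the table of gene counts, not by a measured value, and make 9 of its 23755 gene rows. All 9 passed the filter on low counts in each of the 3 experiments described below.

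Restriction factors act at separate steps of the life cycle of a retroelement. Some drain the building blocks of reverse transcription or cut its DNA and RNA products, some edit or bind the element's nucleic acids, and some act at membranes where particles enter or leave the cell. Many are interferon-stimulated genes: type I interferon binds its receptor Ifnar, and transcription factors downstream of it then act on short promoter elements such as the interferon-stimulated response element. Lipopolysaccharide (LPS), a component of bacterial outer membranes, is sensed by Toll-like receptor 4, which signals through the adaptor MyD88 and, from endosomes, through the adaptor Trif (gene Ticam1), the arm known for inducing interferon-beta.

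Polyadenylated RNA of 65 libraries in 19 groups was counted per gene, and levels are given as CPM, a count per 1000000 gene counts after scaling. In experiment 3, bone marrow derived dendritic cells (BMDCs) of C57BL/6 background, wild type, MyD88KO or TrifKO, were unstimulated (0 h) or received 100 ng/mL LPS for 2 or 4 h, with 3 libraries for each knockout and time and 6, 5 and 6 wild-type libraries at 0, 2 and 4 h. In experiment 2, unstimulated BMDCs of the same background carried wild-type or deleted Suv39h1, a histone H3 lysine methyltransferase, together with wild-type or deleted Ifnar, in 4 groups of 3. In experiment 5, RAW264.7 cells, a BALB/c macrophage line, carried a control guide RNA (gRNA_Ctrl), gRNA_1 or gRNA_2 and were sampled at 0 and 2 h of LPS in 6 groups of 3. The labels give the LPS dose for BMDCs alone, do not name the targets of gRNA_1 and gRNA_2 or the deleted Ifnar subunit, and give neither mouse ages nor how the alleles were made; the MyD88 and Trif genes were wild type in experiment 2, and Suv39h1 and Ifnar in experiment 3. The series states biological replicates but not which libraries came from separate animals, so p-values measure the spread between these libraries. In experiment 3 some wild-type libraries of the same time also shared their cohort label, and these were counted as separate libraries.

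The libraries held 36879570 to 95292653 gene counts, with a median of 54709838, and the smallest count of any of the 9 genes was 14, for Rsad2 in a RAW264.7 library. In the Suv39h1KO groups Suv39h1 was at 0.216 ± 0.126 CPM with Ifnar intact and 0.225 ± 0.127 CPM without it, against 50.5 ± 9.20 CPM in wild type (SD, n = 3 each). Myd88 was lower but present in MyD88KO cells, 47.7 ± 1.28 CPM (n = 3) against 75.1 ± 3.25 CPM (n = 6) at 0 h, and Ifnar1 was at 146 ± 12.7 CPM in IfnarKO against 180 ± 11.7 CPM in wild type, so these 2 genes check the labels weakly, as does any count from outside a deleted part. Ticam1 went with the TrifKO label in 1 library at each of 2 and 4 h only: the TrifKO libraries of cohorts 1, 2 and 3 held 31.0, 29.8 and 31.7 CPM at 0 h, 45.6, 50.3 and 2.94 CPM at 2 h, then 42.3, 37.3 and 2.46 CPM at 4 h, against 30.7 ± 2.95 CPM in wild type at 0 h. Xist, which is transcribed in female cells, was at 0, 1091 and 1010 CPM in these cohorts at 0 h, 0, 1203 and 0.0204 CPM at 2 h, then 1233, 0.0378 and 0 CPM at 4 h. Each cohort number thus joins TrifKO libraries with and without Xist and does not mark 1 animal over the times. Every TrifKO result below is a result for libraries labelled TrifKO, and calls that changed without cohort 3 are given. All 8 dendritic markers examined reached 1 CPM in BMDCs and 3 of 8 did in RAW264.7 cells, with summed levels of 10578 to 26135 CPM against 96.3 to 250.6 CPM. In RAW264.7 cells Flt3, Dpp4 and Ccr7 had a median of 0 CPM, while Cd74 (81.8 to 186 CPM) and Itgax (10.7 to 124 CPM) were present. The summed level of the 7 macrophage markers did not set the sources apart, at 3825 to 19469 CPM in BMDCs and 5407 to 7742 CPM in RAW264.7 cells. Lyz2 (2852 to 15996 against 3155 to 4490 CPM) and Csf1r (145 to 1576 against 1264 to 2323 CPM) overlapped. Adgre1 (136 to 566 against 26.1 to 84.9 CPM) and Fcgr1 (12.6 to 264 against 1.42 to 5.31 CPM) were higher in all BMDC libraries. So were Itgam (264 to 1194 against 172 to 259 CPM) and Mertk, which was at most 0.734 CPM in RAW264.7 cells. Cd68 was higher in all RAW264.7 libraries, at 627 to 731 CPM against 110 to 481 CPM in BMDCs.

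A strict core of the interferon-stimulated response element, GAAANNGAAA or its reverse TTTCNNTTTC, lies within 250 bases before to 50 bases after an annotated start of 4 members, and these stretches are shown because they are the letters through which interferon-responsive factors are known to act. Sequences are from RefSeq (GRCm38.p6), 5′ to 3′ on the strand of the gene, with the cores in capitals. They lie at chr7:141010714-141010743 (minus strand, exonic, bases 1 to 30 from the start) for Ifitm3, chr8:71537545-71537644 (minus strand, upstream of the start) for Bst2, chr12:26456518-26456617 (minus strand, upstream of the start) for Rsad2, and chr15:79892258-79892287 (plus strand, exonic in another transcript) for Apobec3.
Ifitm3: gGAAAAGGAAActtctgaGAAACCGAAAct
Bst2: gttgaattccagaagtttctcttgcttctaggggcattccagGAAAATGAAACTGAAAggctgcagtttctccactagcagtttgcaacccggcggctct
Rsad2: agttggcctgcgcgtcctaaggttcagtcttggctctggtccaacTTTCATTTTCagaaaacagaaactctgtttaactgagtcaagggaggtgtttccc
Apobec3: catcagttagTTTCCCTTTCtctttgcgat
Ifitm3 holds 2 separate cores and Bst2 2 overlapping ones. The core was found in 3.44% of 32851 windows of the same length over all genes, and in 4 of the 14 windows of the members. A palindrome of the gamma-activated site type, TTCNNNGAA, which is its own reverse, was found in windows of 4 members (Samhd1, Isg20, Ifitm3 and Bst2) and in 8.3% of all windows. The NF-kB-type letters GGGANNTTCC, or GGAANNTCCC in reverse, were found in windows of Isg20 and Ifitm3 and in 1.47% of all windows. A match is a description of letters, and its absence says only that these letters are not in that window.

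Per kilobase of merged exon, the members in unstimulated wild-type BMDCs ran over more than 2 orders of magnitude. The merged length joins the exons of all annotated transcripts, 9454 bases of 20 transcripts for Apobec3 and 678 bases of 1 for Ifitm3. It can lower the value of genes with many transcripts, so the order of genes is approximate. For Trex1, 996 exon bases of 1147 are shared with Atrip. Ifitm3 led at 471 CPM per kb, followed by Bst2 at 155, Trex1 at 46.4, Samhd1 at 40.6, Zc3hav1 at 14.1, Apobec3 at 13.6, Rsad2 at 10.5, Mov10 at 2.41 and Isg20 at 1.25 CPM per kb. At 4 h of LPS Ifitm3 (1395 CPM per kb) and Rsad2 (1245 CPM per kb) were highest and Apobec3 (30.2 CPM per kb) and Mov10 (27.9 CPM per kb) lowest, with Isg20 at 135 CPM per kb. In RAW264.7 cells with the control guide at 0 h Ifitm3 was again highest, 581 CPM per kb, while Rsad2, 0.249 CPM per kb, and Isg20, 0.701 CPM per kb, were lowest. The experiments were scaled separately, so levels set across them are approximate.

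In all 9 members the group with the highest mean CPM of the 19 was wild type at 4 h. MyD88KO at 4 h came second for 8 of them, and for Trex1 it came after wild type at 2 h, whose range of 243 to 440 CPM overlapped the 265.4 to 376 CPM of MyD88KO at 4 h. The lowest group means were in RAW264.7 cells for 7 members. The exceptions were Zc3hav1, lowest in MyD88KO at 0 h (82.0 ± 6.88 CPM, n = 3), and Ifitm3, lowest in TrifKO at 0 h (258 ± 17.9 CPM, n = 3).

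The response of wild-type BMDCs to LPS was examined first. Of the 9 members, 7 rose by 2 h, where 21.3% of the 14475 genes tested rose, and 9 of 9 rose by 4 h, where 30.0% of genes rose. From 2 to 4 h 9 of 9 rose further, against 18.6% of genes. The median log2 fold change of the members was 1.33 at 2 h and 2.37 at 4 h, against -0.05 and -0.07 for all genes tested. Fewer cells of a type and less RNA per cell cannot be told apart in these bulk samples. Gene positions below are those of GENCODE release 21 on mm10. The summed dendritic markers ranged from 11047 to 14563 CPM at 0 h and from 17271 to 26135 CPM at 4 h in wild type. The 3 plasmacytoid dendritic cell markers summed to 16.8 to 24.6 CPM at 0 h, 24.2 to 47.1 CPM at 2 h and 95.1 to 208 CPM at 4 h in wild type. At 4 h that sum was 49.4 to 76.8 CPM in MyD88KO and 30.2 to 50.7 CPM in TrifKO libraries, below wild type. Nearly all of it was Tcf4, with Siglech at most 0.331 CPM and Ccr9 at most 2.63 CPM in any BMDC library. The part of either list in the results was not tested.

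**Figure D1:**
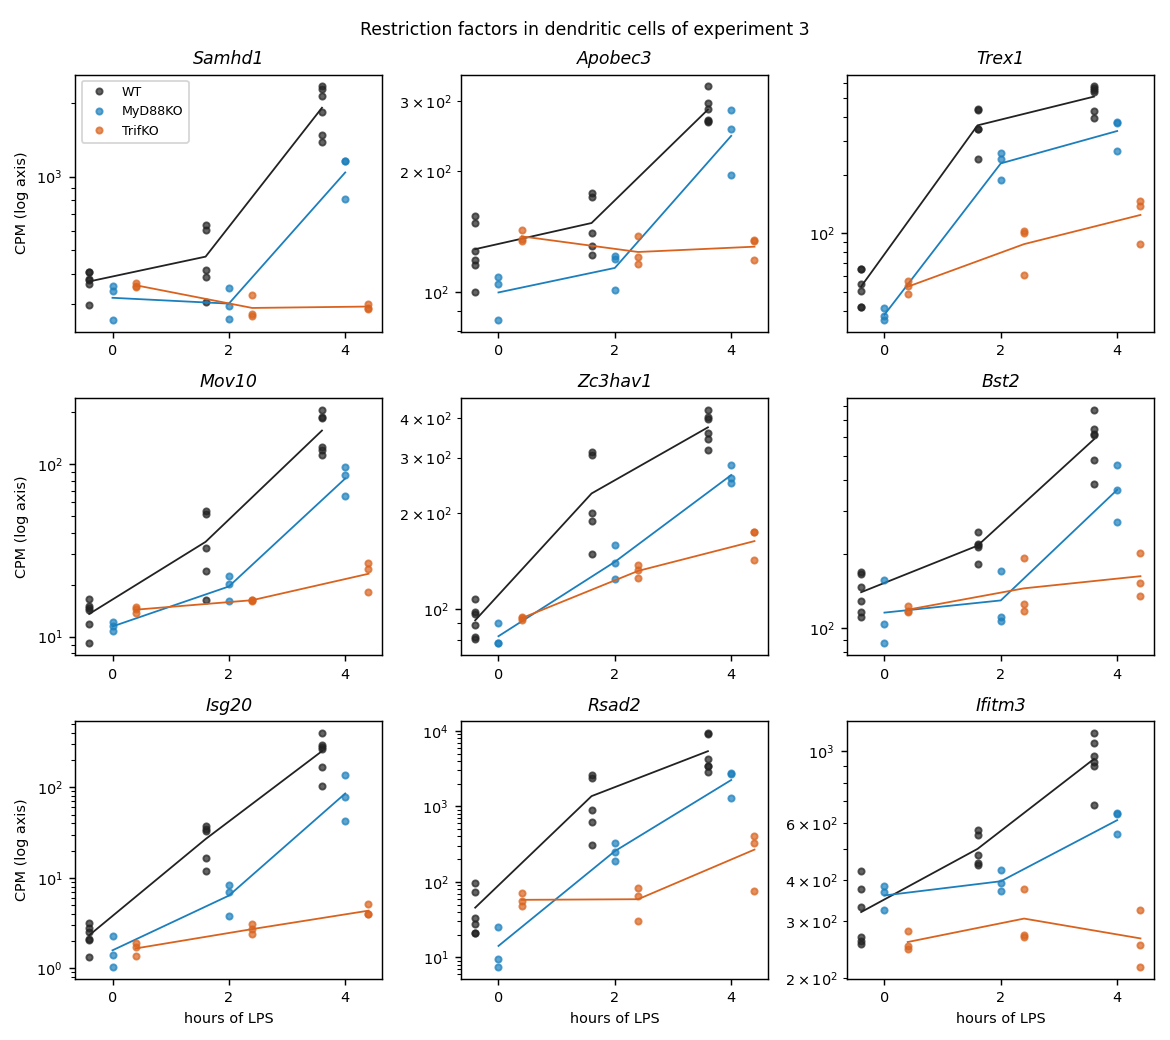
CPM (log axis) of each of the 9 genes in BMDCs against hours of LPS, with 1 point per library, lines through the group means, and the genotypes offset to either side of each time. Rsad2 and Isg20 span the widest range, and the TrifKO libraries lie below all wild-type libraries at 4 h for each gene. The share of all genes with such a gap was not counted.

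Among the enzymes that act on nucleotides and nucleic acids, Samhd1 (chr2:157097533-157135265, minus strand), a dNTP triphosphohydrolase that lowers the dNTP pool, rose at 4 h. Its CPM in wild type had a lowest, median and highest value of 299, 378 and 406 at 0 h and of 1387, 1996 and 2350 at 4 h, and the 5 libraries at 2 h held 307, 606, 634, 389 and 413. The 2 h libraries overlapped those at 0 h, while all 4 h libraries were above both. The log2 fold change was 0.34 ± 0.16 (SE, adjusted p = 0.0827) at 2 h and 2.37 ± 0.16 (adjusted p = 1.88e-13) at 4 h. The 2 h value depended on the libraries. It was 0.55 ± 0.15 (adjusted p = 0.00764) among libraries numbered 33 and above and -0.03 ± 0.25 (adjusted p = 0.945) among those numbered up to 30, and it passed without the 2 h library of cohort 1 in the lower range (0.46, adjusted p = 0.0147).

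Trex1 (chr9:109057933-109059734, minus strand), the main cytosolic DNA 3′ exonuclease, had risen already at 2 h. Its lowest, median and highest values were 41.5, 52.4 and 65.7 CPM at 0 h, the 2 h libraries held 243, 435, 440, 344 and 345 CPM, and the 4 h values were 393, 544 and 576 CPM. No 2 h or 4 h library overlapped the 0 h libraries, but those at 2 and 4 h overlapped each other. The log2 fold change was 2.76 ± 0.17 (adjusted p = 2.29e-13) at 2 h and 3.26 ± 0.17 (adjusted p = 1.35e-15) at 4 h, and the step from 2 to 4 h was 0.49 ± 0.17 (adjusted p = 0.0216). That step did not pass without the wild-type 2 h library of cohort 1 with the lower library number (0.38, adjusted p = 0.085). Trex1 shares 996 exon bases on the same strand with Atrip, so its counts are uncertain where the counting could split them.

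Isg20 (chr7:78913424-78920396, plus strand), a 3′ to 5′ exonuclease that degrades single-stranded RNA, was nearly silent at 0 h, with values of 1.32, 2.30 and 3.13 CPM (lowest, median, highest). At 2 h the libraries held 11.9, 34.8, 37.5, 16.5 and 33.2 CPM and the 4 h values were 104, 270 and 396 CPM. The 3 times did not overlap. Its log2 fold change was 3.53 ± 0.34 (adjusted p = 1.32e-09) at 2 h and 6.75 ± 0.39 (adjusted p = 5.45e-15) at 4 h.

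Apobec3 (chr15:79891659-79915906, plus strand), the cytidine deaminase that edits retroviral DNA, changed least. It went from 101, 124 and 155 CPM (lowest, median, highest) at 0 h through 124, 173, 177, 130 and 140 CPM at 2 h to 265.2, 278 and 326 CPM at 4 h. Only the 4 h libraries lay clear of the 0 h libraries. The log2 fold change was 0.22 ± 0.11 (adjusted p = 0.11) at 2 h and 1.15 ± 0.11 (adjusted p = 1.18e-10) at 4 h. Apobec3 shares 512 exon bases on the same strand with D730005E14Rik and 100 on the opposite strand with Cbx7, and its counts are uncertain there.

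The RNA helicase Mov10 (chr3:104794836-104818563, minus strand), which inhibits LINE-1 retrotransposition, held 9.13, 14.4 and 16.6 CPM (lowest, median, highest) at 0 h. The 2 h libraries spread widely, at 16.4, 51.3, 53.1, 23.9 and 32.4 CPM, and the lowest of them was below the highest 0 h library. At 4 h the values were 112, 155 and 207 CPM. The log2 fold change was 1.39 ± 0.22 (adjusted p = 5.27e-06) at 2 h and 3.53 ± 0.23 (adjusted p = 7.36e-14) at 4 h.

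Zc3hav1 (chr6:38305286-38354603, minus strand) encodes ZAP, a zinc-finger protein that binds CpG-rich viral RNA and leads it to decay. It held 80.6, 92.6 and 107 CPM (lowest, median, highest) at 0 h, 149, 305, 313, 200 and 189 CPM at 2 h, then 317, 378 and 425 CPM at 4 h, and the 3 times did not overlap. The log2 fold change was 1.33 ± 0.13 (adjusted p = 2.03e-09) at 2 h and 2.02 ± 0.13 (adjusted p = 7.07e-14) at 4 h.

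Rsad2 (chr12:26442746-26456452, minus strand) encodes viperin, a radical SAM enzyme that makes a chain-terminating nucleotide. It had the largest log2 fold change of the 9 at both times, within the errors of that of Isg20 at 4 h. It went from 20.7, 30.2 and 97.0 CPM (lowest, median, highest) at 0 h through 304, 2413, 2597, 628 and 905 CPM at 2 h to 2867, 3857 and 9365 CPM at 4 h. The times did not overlap, although the libraries of one time differed several-fold. The log2 fold change was 4.91 ± 0.58 (adjusted p = 5.51e-08) at 2 h and 6.89 ± 0.63 (adjusted p = 1.13e-10) at 4 h.

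Of the membrane proteins, Bst2, or tetherin (chr8:71534255-71537456, minus strand), holds budding particles at the cell surface and Ifitm3 (chr7:141009586-141010770, minus strand) blocks fusion in endosomes. Bst2 held 112, 138 and 170 CPM (lowest, median, highest) at 0 h, 183, 219, 221, 215 and 246 CPM at 2 h, then 387, 613 and 773 CPM at 4 h. Ifitm3 held 255, 299 and 428 CPM at 0 h, 572, 478, 452, 447 and 550 CPM at 2 h, then 684, 945 and 1137 CPM at 4 h. Neither gene's times overlapped. Bst2 had a log2 fold change of 0.63 ± 0.18 (adjusted p = 0.00486) at 2 h and 2.06 ± 0.18 (adjusted p = 3.57e-11) at 4 h. Ifitm3 had 0.65 ± 0.14 (adjusted p = 0.000235) and 1.57 ± 0.13 (adjusted p = 2.19e-11), and reads of its close paralogs Ifitm1 and Ifitm2 may have been split with it.

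The scaling mattered for the smaller changes. The TMM scaling used here sets most genes at no change. With total gene counts alone, the median log2 change of all genes moved to -0.43 at 2 h and -0.71 at 4 h in wild type, and the genes called higher and lower at 2 h went from 3083 and 3558 to 1464 and 7276. Under it all 9 members still rose at 4 h. At 2 h Bst2 (0.24, adjusted p = 0.243) and Ifitm3 (0.27, adjusted p = 0.0987) no longer passed, and the 2 h values of Samhd1 and Apobec3, which did not pass under either scaling, changed sign.

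The wild-type libraries of experiment 3 fall into 2 ranges of library numbers, up to 30 and from 33, with the MyD88KO libraries in the first range and the TrifKO libraries in the second. Rsad2 differed between the ranges in its mean, 23.02 ± 3.97 against 68.0 ± 32.6 CPM at 0 h (n = 3 each), 604 ± 425 (n = 2) against 1879 ± 1088 CPM (n = 3) at 2 h and 3244 ± 327 against 7551 ± 2853 CPM at 4 h (n = 3 each). Ifitm3 was closer, at 929 ± 229 against 963 ± 87.8 CPM at 4 h. Comparisons of a knockout with wild type were therefore repeated within its own range.

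**Figure D2:**
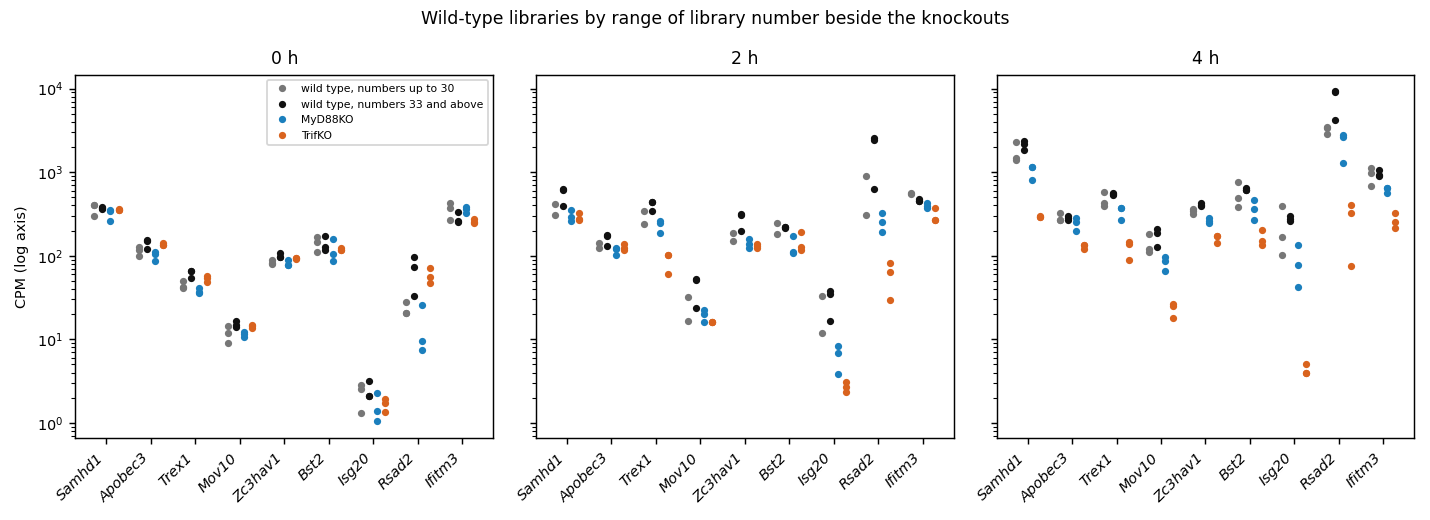
CPM (log axis) of each gene in each wild-type BMDC library by hours of LPS, separated by library-number range, with 1 point per library. The wild-type Rsad2 points of the higher range reach 9365 CPM at 4 h, while those of the lower range reach 3450 CPM.

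MyD88KO BMDCs tested whether the members respond without the MyD88 arm. Of the 9 members, 4 rose at 2 h in these cells, against 8.83% of genes, and 9 of 9 rose at 4 h, against 17.1%. From 2 to 4 h 8 of 9 rose, against 7.47% of genes, and Trex1 did not pass (0.55, adjusted p = 0.112).

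The members that rose at 2 h without MyD88 were the exonucleases Trex1 and Isg20, Zc3hav1 and Rsad2. Trex1 went from 35.8, 37.3 and 41.1 CPM in cohorts 1, 2 and 3 at 0 h to 259, 188 and 243 CPM at 2 h, then 376, 265.4 and 373 CPM at 4 h, and all stimulated libraries were above the unstimulated ones. Its log2 fold change was 2.60 ± 0.24 (adjusted p = 6.48e-09) at 2 h. Rsad2 held 9.49, 25.5 and 7.47 CPM at 0 h, 325, 251 and 190 CPM at 2 h, then 2653, 2765 and 1302 CPM at 4 h. Its times did not overlap, and its log2 fold change was 4.18 ± 0.79 (adjusted p = 0.000325) at 2 h and 7.31 ± 0.91 (adjusted p = 3.85e-07) at 4 h. Isg20 held 1.04, 1.40 and 2.30 CPM, then 6.90, 3.82 and 8.34 CPM, then 78.0, 42.5 and 136 CPM, also without overlap. The log2 fold changes at 2 h were 2.00 ± 0.46 (adjusted p = 0.00254) for Isg20 and 0.78 ± 0.18 (adjusted p = 0.00239) for Zc3hav1.

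Samhd1 in MyD88KO cells held 356, 258 and 340 CPM at 0 h, 350, 259 and 294 CPM at 2 h, then 1160, 806 and 1154 CPM at 4 h, so that the first 2 times overlapped and the third lay above. Its log2 fold change at 4 h was 1.71 ± 0.22. Ifitm3 had the smallest 4 h change of the 9 there, 0.77 ± 0.18 (adjusted p = 0.00165), from 325, 367 and 385 CPM to 639, 557 and 643 CPM. Without TMM factors that change did not pass (adjusted p = 0.0643).

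Against wild type at the same time, 0 of 9 members differed in MyD88KO cells at 0 h by edgeR's quasi-likelihood test, where 0.0622% of genes differed. At an unadjusted p below 0.05 there were 3 of 9, and DESeq2 called 0. At 2 h 7 of 9 members were lower (7.03% of genes were lower), and at 4 h again 7 of 9 (14.6%). Isg20 had a log2 difference of -2.07 ± 0.42 (adjusted p = 0.00141) at 2 h and -1.55 ± 0.39 (adjusted p = 0.00382) at 4 h. Rsad2 was lower at 2 h (-2.42 ± 0.69, adjusted p = 0.0187) but did not pass at 4 h (-1.27 ± 0.63, adjusted p = 0.137), although its 3 MyD88KO libraries were all below the 6 wild-type ones. Ifitm3 did not pass at 2 h (-0.33, adjusted p = 0.191) and was lower at 4 h (-0.63, adjusted p = 0.00482). Apobec3 passed at neither time. The knockout and wild-type libraries overlapped for 5 of the 7 members called at 2 h, and for Bst2 and Isg20 among the 7 called at 4 h. Over all 9 members, 4 did not overlap at 2 h and 6 at 4 h, with members that were not called among them. The share of all genes without overlap was not counted.

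These calls depended on which wild-type libraries were used. Within the library-number range of the MyD88KO libraries, 0 of 9 members were called at 2 h, where 0.824% of genes were lower, and 0 of 9 at 4 h, where 5.64% were. In that range the 2 h log2 difference was -1.83 for Isg20 (adjusted p = 0.222) and -1.25 for Rsad2 (adjusted p = 0.312). At 4 h it was -0.58 for Ifitm3 (adjusted p = 0.0545) and -0.71 for Samhd1 (adjusted p = 0.0603). It was below 0 for every member at both times, with 2 wild-type libraries at 2 h. By the quasi-likelihood test, the unadjusted p at 2 h was 0.00891 (Isg20), 0.0244 (Rsad2), 0.0255 (Ifitm3) and 0.0437 (Bst2), and above 0.05 otherwise. At 4 h it was 0.00602 (Ifitm3), 0.00713 (Samhd1), 0.0106 (Zc3hav1), 0.0124 (Mov10), 0.0254 (Isg20) and 0.0317 (Trex1), and above 0.05 otherwise. With total counts in place of TMM factors 3 of 9 were lower at 2 h (4.51% of genes) and 3 of 9 at 4 h (5.90%), and the genes called higher and lower at 4 h went from 1990 and 2117 to 5910 and 854. At 2 h 7 became 2 without the wild-type library of cohort 1 or 2 of the higher range or the MyD88KO library of cohort 2, and 3 without the MyD88KO library of cohort 3. At 4 h 7 became 4 without the MyD88KO library of cohort 2.

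Whether the response itself changed without MyD88 was tested as an interaction. At 2 h 0 of 9 members differed, against 0.387% of genes with a smaller response. There were 3 of 9 at an unadjusted p below 0.05, and DESeq2 called 0. At 4 h 1 of 9 did, Ifitm3 (-0.80 ± 0.22 on the log2 scale, adjusted p = 0.0291), against 4.39% of genes. Within the library-number range of the MyD88KO libraries the Ifitm3 difference was -0.60 (adjusted p = 0.383), and without TMM factors it was -0.49 (adjusted p = 0.14). It also did not pass without the MyD88KO library of cohort 2 at 0 h (adjusted p = 0.0701), of cohort 3 at 0 h (adjusted p = 0.079) or of cohort 2 at 4 h (adjusted p = 0.0921).

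TrifKO libraries showed small changes of the members with LPS. Of the 9, 2 rose at 2 h, where 11.3% of genes rose, and 4 rose at 4 h, where 14.4% did. From 2 to 4 h 0 of 9 rose by edgeR's quasi-likelihood test, where 0.594% of genes did. At an unadjusted p below 0.05 there were 2 of 9, and DESeq2 called 0. The median log2 fold change of the members at 4 h was 0.69, against 0.00 for all genes tested.

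Trex1 and Zc3hav1 rose at both times in TrifKO libraries. Trex1 held 53.6, 48.9 and 56.8 CPM in cohorts 1, 2 and 3 at 0 h, 101, 102 and 60.8 CPM at 2 h, then 138, 147 and 88.6 CPM at 4 h, with cohort 3 lowest at both stimulated times and no overlap with 0 h. Its log2 fold change was 0.73 ± 0.23 (adjusted p = 0.0199) at 2 h and 1.23 ± 0.23 (adjusted p = 0.000204) at 4 h. Zc3hav1 held 93.9, 92.0 and 94.6 CPM, then 137, 133 and 125 CPM, then 174, 174 and 142 CPM, for log2 fold changes of 0.49 ± 0.18 (adjusted p = 0.0462) and 0.81 ± 0.18 (adjusted p = 0.00125). At 2 h both calls were lost without TMM factors (adjusted p = 0.0845 for Trex1 and 0.277 for Zc3hav1), where Samhd1 (-0.56, adjusted p = 0.0288) and Apobec3 (-0.39, adjusted p = 0.0332) were lower instead. The 2 h count became 1 without any one of 16 libraries and 0 without the TrifKO library of cohort 1 or 2 at 0 h or at 2 h. Without the cohort 3 libraries it was Trex1 alone (0.99, adjusted p = 0.0068).

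Rsad2 in TrifKO libraries held 70.8, 47.4 and 55.2 CPM at 0 h, 82.4, 64.3 and 29.9 CPM at 2 h, then 325, 403 and 75.2 CPM at 4 h. The 2 h libraries overlapped the 0 h ones (0.03 ± 0.69, adjusted p = 0.986), and the 4 h libraries were above them (2.21 ± 0.72, adjusted p = 0.0234). Isg20 held 1.92, 1.35 and 1.71 CPM, then 2.71, 3.05 and 2.37 CPM, then 3.95, 5.11 and 3.95 CPM, without overlap between times. It had a log2 fold change of 0.71 (adjusted p = 0.312) at 2 h and 1.38 ± 0.46 (adjusted p = 0.0258) at 4 h. Both 4 h calls were lost without the TrifKO library of cohort 2 or 3 at 0 h or of cohort 1 or 2 at 4 h, for example Isg20 at 1.40 (adjusted p = 0.0651) and Rsad2 at 2.18 (adjusted p = 0.073) without cohort 3 at 0 h, and Rsad2 also without cohort 1 at 0 h (adjusted p = 0.0503). With all cohort 3 libraries left out Rsad2 passed (2.62, adjusted p = 0.0339) and Isg20 did not (1.46, adjusted p = 0.0884).

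The other 5 members did not pass in TrifKO libraries at either time. Samhd1 held 351, 367 and 357 CPM unstimulated and 287, 301 and 290 CPM after 4 h (-0.29, adjusted p = 0.349), so its 4 h libraries were below those at 0 h. Ifitm3 held 278, 245 and 251 CPM unstimulated and 216, 253 and 325 CPM after 4 h, with overlap (0.04, adjusted p = 0.907). Mov10 held 13.8, 14.4 and 14.8 CPM unstimulated and 26.6, 24.7 and 18.04 CPM after 4 h, where it lay above but did not pass (0.69 ± 0.29, adjusted p = 0.0838). Bst2 had a 4 h log2 fold change of 0.45 ± 0.24 (adjusted p = 0.181) and Apobec3 of -0.09 (adjusted p = 0.719). Without TMM factors Samhd1 was called lower at 4 h as well (-0.52 ± 0.19, adjusted p = 0.0422).

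Against wild type, 0 of 9 members differed in TrifKO libraries at 0 h by edgeR's quasi-likelihood test, as did 0 of 14475 genes (0%). At an unadjusted p below 0.05 there were also 0 of 9, and DESeq2 called 0. At 2 h 7 of 9 were lower, where 2.54% of genes were, and at 4 h 9 of 9, where 15.6% were. The MyD88KO and TrifKO comparisons share their wild-type libraries. At 4 h no TrifKO library of any member reached the lowest wild-type library. The share of all genes without overlap was not counted, so this gap is a description.

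The 4 h log2 differences from wild type were -5.85 ± 0.51 for Isg20 (adjusted p = 3.87e-10), -4.33 ± 0.76 for Rsad2 (adjusted p = 4.93e-05), -2.76 ± 0.29 for Mov10, -2.71 ± 0.21 for Samhd1 (adjusted p = 6.78e-11), -2.03 ± 0.22 for Trex1, -1.85 ± 0.23 for Bst2, -1.84 ± 0.17 for Ifitm3 (adjusted p = 2.1e-09), -1.19 ± 0.16 for Zc3hav1 and -1.13 ± 0.14 for Apobec3. All 9 were called also without the cohort 3 libraries. At 2 h, among the 7 called, the largest were Rsad2 (-4.54 ± 0.78, adjusted p = 0.000236), Isg20 (-3.30 ± 0.45, adjusted p = 8.29e-06) and Trex1 (-2.04 ± 0.22, adjusted p = 1.46e-07), and Apobec3 (-0.24, adjusted p = 0.488) and Bst2 (-0.58, adjusted p = 0.192) did not pass. Without the cohort 3 libraries Samhd1 (-0.80, adjusted p = 0.0701) and Mov10 (-1.12, adjusted p = 0.0634) did not pass at 2 h. The 2 h count became 4 without the TrifKO 2 h library of cohort 1 or 2, and 2 when only the compared groups were fitted.

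As an interaction, 3 of 9 members had a smaller response in TrifKO than in wild type at 2 h, against 1.25% of genes, and 9 of 9 at 4 h, against 9.30%. At 2 h these were Rsad2 (-4.89 ± 0.92, adjusted p = 0.00182), Isg20 (-2.82 ± 0.57, adjusted p = 0.00446) and Trex1 (-2.03 ± 0.28, adjusted p = 3.66e-05), with Zc3hav1 outside the threshold (-0.83, adjusted p = 0.0511). At 4 h the differences ran from -5.37 ± 0.59 for Isg20 (adjusted p = 1.21e-07) and -4.68 ± 0.91 for Rsad2 (adjusted p = 0.000424) to -1.21 ± 0.22 for Zc3hav1 (adjusted p = 0.000173). Without the cohort 3 libraries the 4 h count was again 9, and at 2 h Isg20 did not pass (-2.71, adjusted p = 0.0707). Within the library-number range of the TrifKO libraries the 2 h count was 5 of 9, against 1.46% of genes, with Zc3hav1 (-0.95 ± 0.19, adjusted p = 0.0139) and Samhd1 (-0.86 ± 0.21, adjusted p = 0.0484) added. It was also 5 without the wild-type 2 h library of cohort 1 with the lower library number.

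**Figure D3:**
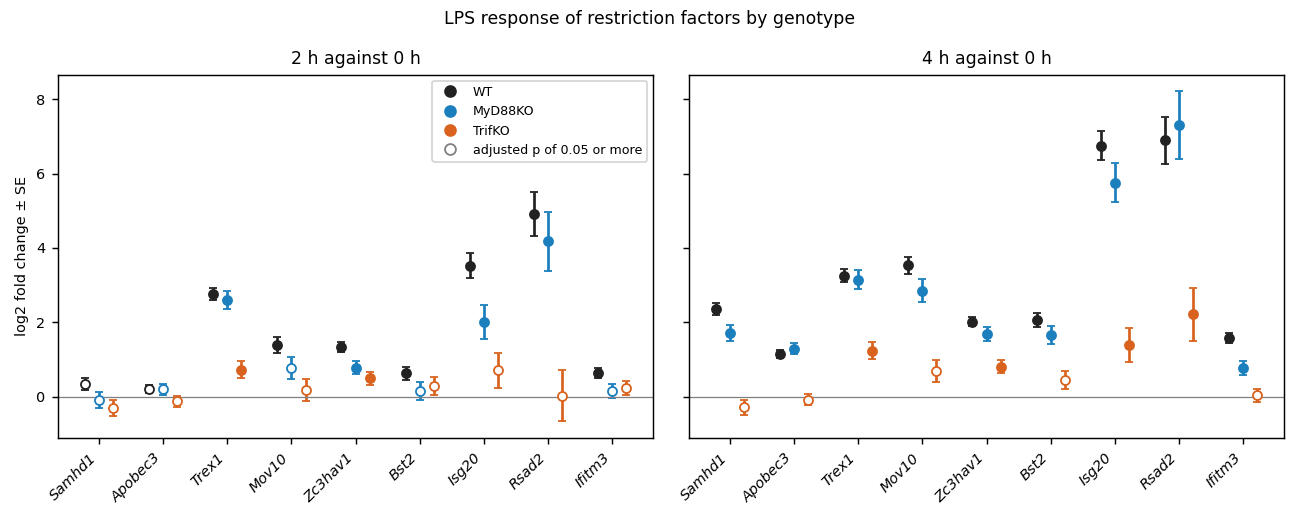
Log2 fold change from 0 h (with its standard error) of each gene at 2 and 4 h of LPS in wild type, MyD88KO and TrifKO BMDCs, with hollow points where the adjusted p was 0.05 or more. The TrifKO points at 4 h lie between -0.29 for Samhd1 and 2.21 for Rsad2, below those of wild type for every gene.

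In the unstimulated BMDCs of experiment 2, the type I interferon receptor and Suv39h1 were deleted singly and together. Libraries without Ifnar held less Rsad2. With Suv39h1 intact, Rsad2 held 18.6, 26.7 and 43.98 CPM in wild-type cohorts 1, 2 and 3 and 1.73, 2.39 and 3.51 CPM in IfnarKO, and without Suv39h1 it held 15.8, 19.5 and 50.2 CPM with Ifnar and 1.43, 1.23 and 1.33 CPM without. All IfnarKO libraries were below all libraries with Ifnar. The log2 difference was -3.55 ± 0.47 (adjusted p = 0.00995) with Suv39h1 and -4.42 ± 0.50 (adjusted p = 0.00263) without it. The summed macrophage markers moved with Ifnar as well, from 10283 to 12951 CPM in wild type to a range of 13800 to 19469 CPM in IfnarKO, and from 8568 to 9955 CPM to 11894 to 15501 CPM without Suv39h1. Their part in the Ifnar results was not tested.

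Rsad2 was the 1 of 9 members called with Suv39h1 intact, where 0.118% of genes were lower, and Rsad2 and Isg20 were the 2 of 9 called without Suv39h1, where 0.153% were. Isg20 held 2.30, 1.93 and 2.30 CPM in wild type against 1.00, 0.937 and 0.803 CPM in IfnarKO (-1.25 ± 0.24, adjusted p = 0.141), and 2.72, 2.06 and 2.98 CPM against 0.928, 1.06 and 0.655 CPM without Suv39h1 (-1.55 ± 0.24, adjusted p = 0.0305). Its groups overlapped in neither background. The Rsad2 call with Suv39h1 was lost without the IfnarKO library of cohort 1 (-3.34, adjusted p = 0.0668) or cohort 2 (-3.51, adjusted p = 0.0857), and Bst2 was called as well without the wild-type library of cohort 2 (-1.07, adjusted p = 0.0347). The Isg20 call without Suv39h1 was lost without any one of 8 of the 12 libraries (adjusted p up to 0.17).

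Libraries of the same cohort number deviated together in experiment 2, so the fit with the cohort as a replicate block bears on these counts. With the replicate block 2 of 9 members were lower with Suv39h1 intact, where 0.368% of genes were lower, and 4 of 9 without Suv39h1, where 1.01% were. With Suv39h1 these were Rsad2 (-3.52, adjusted p = 3.63e-05) and Bst2 (-0.81 ± 0.13, adjusted p = 0.0205). Without it they were Rsad2 (-4.28, adjusted p = 1.37e-05), Isg20 (-1.55, adjusted p = 0.00812), Bst2 (-0.71 ± 0.13, adjusted p = 0.0247) and Mov10 (-0.50 ± 0.09, adjusted p = 0.0242).

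Bst2, which held 218, 128 and 223 CPM in wild type, was at 108, 106 and 100 CPM in IfnarKO, all below wild type. Without Suv39h1 it held 224, 159 and 196 CPM with Ifnar and 125, 97.5 and 129 CPM without, again with no overlap. Ifitm3 held 544, 522 and 323 CPM in wild type and 491, 387 and 154 CPM in IfnarKO, which overlapped, with cohort 3 lowest in each group. Samhd1 held 357, 315 and 466.2 CPM in wild type and 324, 325 and 363 CPM in IfnarKO, with overlap.

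Suv39h1 deletion moved none of the members past the threshold. By edgeR's quasi-likelihood test 0 of 9 differed with Ifnar intact (0.209% of genes differed in either direction), and 0 of 9 without Ifnar (0.222% of genes). The cohort, which was taken to pair libraries in this experiment, was not a block in that fit. A difference in the effect of Suv39h1 by Ifnar status was called for 0 of the 9, as for 0 of 14386 genes (0%). In each of these 3 comparisons 0 of 9 had an unadjusted p below 0.05, and DESeq2 called 0. Trex1, for example, held 44.01, 38.4 and 59.4 CPM in wild type and 41.2, 52.8 and 75.8 CPM in Suv39h1KO, and Mov10 held 16.1, 12.9 and 17.6 CPM against 16.2, 16.4 and 21.4 CPM, both with overlap. Without Ifnar, the groups did not overlap for Trex1, Apobec3 and Rsad2, although none passed. The share of all genes without overlap was not counted, so these gaps are descriptions. Trex1 was at 33.4 to 38.7 CPM with Suv39h1 and 44.03 to 48.9 CPM without (0.35 ± 0.21, adjusted p = 0.913), Apobec3 at 110 to 115 against 117 to 156 CPM (0.25 ± 0.17, adjusted p = 0.944), and Rsad2 at 1.73 to 3.51 against 1.23 to 1.43 CPM (-0.93 ± 0.46, adjusted p = 0.878). The summed dendritic markers were higher without Suv39h1, at 18086 to 20280 against 14119 to 17430 CPM with Ifnar and 16802 to 18412 against 12089 to 16572 CPM without it, and their part was not tested.

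**Figure D4:**
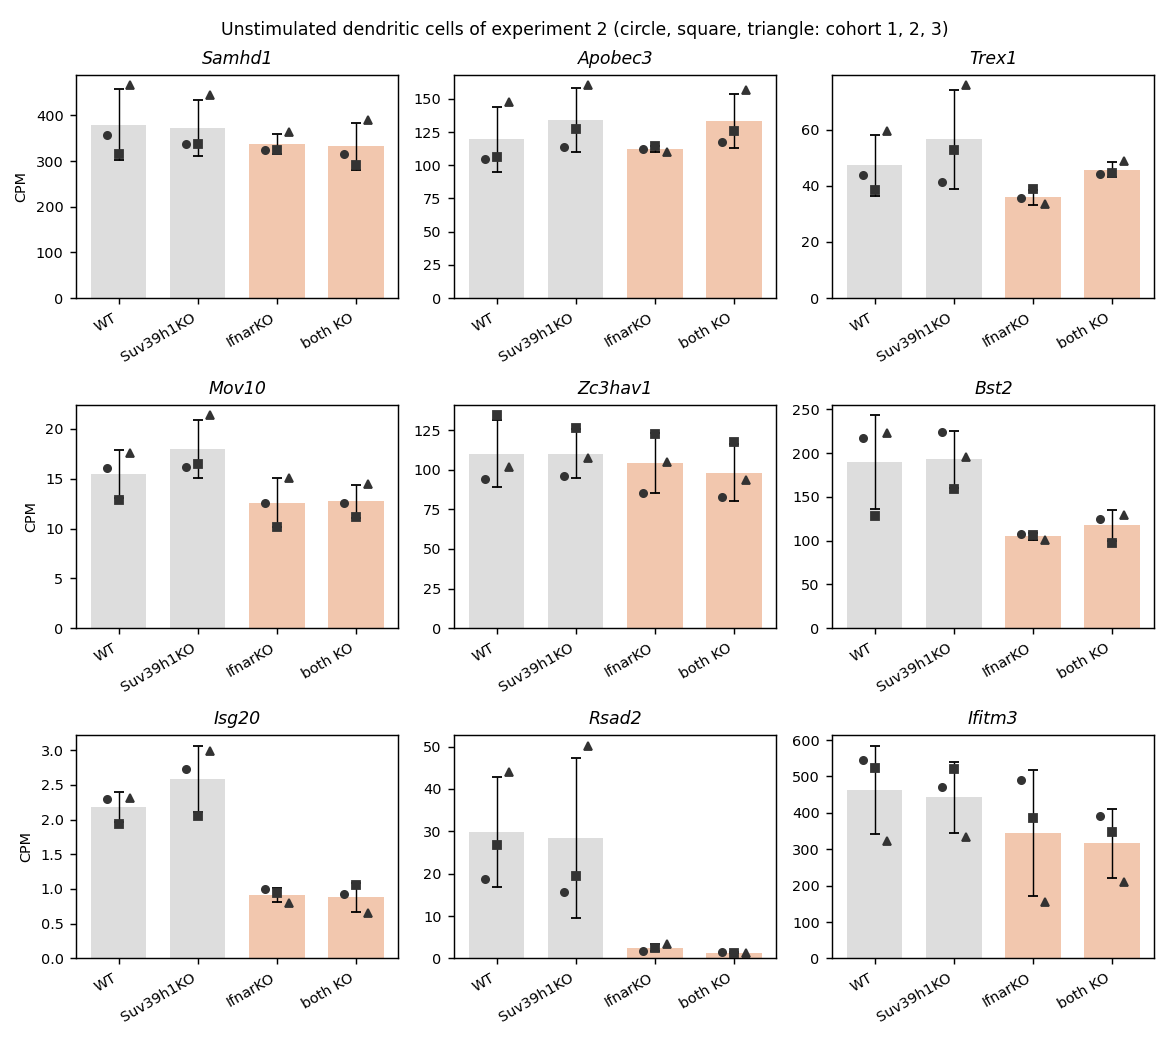
CPM of each gene in the 4 groups of unstimulated BMDCs, with bars at the mean of 3 libraries, error bars of 1 SD, and a circle, square or triangle for cohort 1, 2 or 3, on axes from 0. Rsad2 lies between 18.6 and 43.98 CPM in wild type and between 1.73 and 3.51 CPM in IfnarKO, while the Suv39h1KO libraries with Ifnar overlap wild type for every gene.

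RAW264.7 cells gave a second cell source at 0 and 2 h of LPS. With the control guide 6 of 9 members rose, where 26.3% of the 13078 genes tested rose, and 1 of 9, Samhd1, fell, where 25.3% of genes fell. With gRNA_1 6 of 9 rose (26.2% of genes) and 2 of 9 fell (25.1%), and with gRNA_2 6 of 9 rose (26.3%) and 1 of 9 fell (24.5%). The median log2 fold change of the members with the control guide was 0.30, against 0.00 for all genes.

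Trex1 there went from 14.7, 15.1 and 16.9 CPM to 52.1, 58.0 and 59.3 CPM with the control guide (1.86 ± 0.12, adjusted p = 9.24e-10). The nuclease Isg20 went from 1.30, 1.14 and 1.48 CPM to 4.15, 4.01 and 4.77 CPM (1.72 ± 0.17, adjusted p = 2.48e-07). Rsad2 went from 0.974, 0.985 and 1.28 CPM to 4.74, 5.59 and 3.44 CPM (2.09 ± 0.37, adjusted p = 0.000128). None of these overlapped between the times, but Rsad2 and Isg20 stayed at a few CPM. Zc3hav1 went from 103, 99.9 and 99.3 CPM to 167, 167 and 165 CPM (0.72 ± 0.06, adjusted p = 1.49e-08), without overlap.

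Samhd1 held 92.1, 90.9 and 107 CPM unstimulated and 67.8, 69.9 and 85.0 CPM after 2 h with the control guide, all lower (-0.38 ± 0.11, adjusted p = 0.00648). With gRNA_1 it fell by 0.43 (adjusted p = 0.00275) and with gRNA_2 by 0.37 (adjusted p = 0.00778) on the log2 scale. In wild-type BMDCs its 2 h value was 0.34 and did not pass, with the dependence on libraries given above. The 2 experiments were fitted separately, and the difference between the cell sources was not tested. Apobec3 was at 18.1, 19.98 and 17.1 CPM unstimulated and 16.9, 16.4 and 15.6 CPM after 2 h (-0.17, adjusted p = 0.0819), passed with gRNA_1 (-0.27, adjusted p = 0.00908) and not with gRNA_2 (-0.16, adjusted p = 0.0992). Mov10 did not pass with any guide, with 10.4, 11.5 and 14.8 CPM unstimulated and 8.59, 9.36 and 13.4 CPM after 2 h with the control guide.

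Bst2 went from 56.5, 50.8 and 50.8 CPM to 62.9, 66.2 and 66.3 CPM (0.30 ± 0.06, adjusted p = 0.000645), and Ifitm3 from 421, 401 and 360 CPM to 483, 483 and 433 CPM (0.24 ± 0.09, adjusted p = 0.0333). Neither overlapped between the times. Without TMM factors, under which the median of all genes moved to -0.18 and the genes called higher and lower went from 3438 and 3305 to 2000 and 5660, neither call held with the control guide, and Apobec3 was lower (-0.35, adjusted p = 0.0015).

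**Figure D5:**
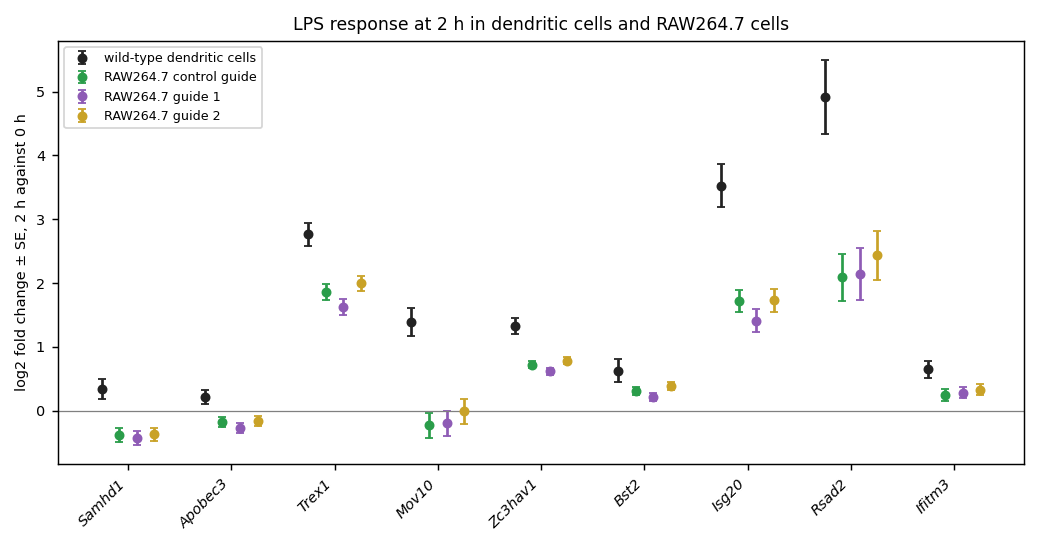
Log2 fold change from 0 to 2 h of LPS (with its standard error) for each gene in wild-type BMDCs and in RAW264.7 cells with each of the 3 guides. The Samhd1 points of RAW264.7 cells lie between -0.43 and -0.37 and the wild-type BMDC point at 0.34, and Rsad2 is at 4.91 in BMDCs and between 2.09 and 2.43 in RAW264.7 cells.

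Between guides, Bst2 was lower with both targeting guides. It held 43.1, 43.2 and 43.9 CPM with gRNA_1 and 36.5, 35.96 and 41.97 CPM with gRNA_2 at 0 h, all below the control, and 51.6, 50.8 and 48.9 CPM and 47.9, 53.8 and 48.4 CPM at 2 h, again all below. It was the 1 of 9 called with gRNA_1 at 0 h (-0.28 ± 0.06, adjusted p = 0.023), where 1.19% of genes were lower. At 2 h 2 of 9 were called with gRNA_1, where 1.48% of genes were, namely Bst2 (-0.37, adjusted p = 0.00274) and Isg20 (-0.89 ± 0.16, adjusted p = 0.00508). With gRNA_2 the same 2 of 9 were called at 0 h (1.94% of genes), with Bst2 at -0.47 (adjusted p = 0.000315) and Isg20 at -0.69 (adjusted p = 0.0462), and at 2 h (2.42% of genes), with Bst2 at -0.38 (adjusted p = 0.00187) and Isg20 at -0.69 (adjusted p = 0.0187). The guide comparisons share the control libraries. Isg20 held 0.815, 0.803 and 1.01 CPM with gRNA_1 and 0.776, 0.757 and 0.911 CPM with gRNA_2 at 0 h, and 2.07, 2.21 and 2.73 CPM and 2.24, 2.51 and 3.25 CPM at 2 h, below the control at both times.

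Several of these guide calls rested on single libraries. The Bst2 call with gRNA_1 at 0 h was lost without any one gRNA_1 library at 0 h or the control library of replicate 1. The Isg20 call with gRNA_2 at 0 h was lost without any one of 12 of the 18 libraries and that at 2 h without any one of 4. With gRNA_1 at 2 h 4 of 9 were called without the gRNA_2 library of replicate 3 at 2 h.

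Other genes, in 3 lists, were counted beside the members in wild-type BMDCs at 4 h. Of 14 partners and cofactors of the members, 4 rose and 5 fell, with a median of -0.03, where 30.0% of all genes rose and 35.1% fell with a median of -0.07. Cmpk2, the nucleotide kinase encoded next to Rsad2 that supplies its substrate, had a log2 fold change of 7.22 ± 0.61 (adjusted p = 1.85e-11). N4bp1, an RNA nuclease, had 1.79 ± 0.09, Trim25, the ubiquitin ligase that works with ZAP, had 1.61 ± 0.14, and Ccna2, a cyclin of the kinase complex that phosphorylates Samhd1, had -1.87 ± 0.32. Of 27 other antiretroviral and retroelement-limiting genes, 15 rose and 7 fell, with a median of 0.52. They included Isg15, a ubiquitin-like modifier (6.85 ± 0.41), the dynamin-like GTPases Mx2 (5.25 ± 0.33) and Mx1 (3.58 ± 0.29), and the tripartite-motif gene Trim30a (3.92 ± 0.23). Of 11 genes of interferon-beta and its signalling, 10 rose and 1 fell, with a median of 1.84, among them Ifnb1 (6.74 ± 0.50), the regulator Irf7 (5.86 ± 0.37) and Stat2 (2.78 ± 0.20).

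In MyD88KO cells at 4 h 5, 14 and 9 genes of these lists rose, in the same order, and 0, 4 and 0 fell, where 17.1% of all genes rose and 34.1% changed in either direction (2457 of 14475 fell). In TrifKO libraries 3, 8 and 8 rose and 0, 5 and 0 fell, against 14.4% and 11.5% of genes. Cmpk2 had a log2 fold change of 2.35 (adjusted p = 0.0119) and Ifnb1 of 2.51 (adjusted p = 0.0342) in TrifKO libraries at 4 h. The 4 h response was smaller in TrifKO than in wild type for 4, 14 and 6 genes and larger for 2, 2 and 0, against 9.30% and 8.99% of genes. In unstimulated IfnarKO cells with Suv39h1 1 gene of the 3 lists was called, Irf7, which was lower, as were 0.118% of all genes (-3.64 ± 0.45, adjusted p = 0.00578), while Cmpk2 did not pass (-2.53, adjusted p = 0.0938). In RAW264.7 cells with the control guide Ifnb1 rose (6.56), while Irf7 (0.42, adjusted p = 0.0748) did not pass at 2 h.

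Over the 19 group means on the log scale, each experiment centred on its own mean, Pearson's r was used to find the genes whose pattern was most like each member, among 10908 genes. The groups share scaling and controls, so r is a description. For Rsad2 these were Slfn8 (0.992) and Cmpk2 (0.978), for Trex1 Cxcl10 (0.990) and Peli1 (0.981), for Isg20 Ogfr (0.979) and Ddx58 (0.978), for Zc3hav1 Parp14 (0.987) and Sppl2a (0.985), and for Mov10 Fbxw17 (0.991) and Tor1aip2 (0.989). For Samhd1 they were Snx2 (0.989) and Isoc1 (0.983), for Bst2 Lancl2 (0.966) and Dhx58 (0.964), for Apobec3 Rasa4 (0.967) and Ids (0.961), and for Ifitm3 Tbrg1 (0.953) and Pfkp (0.952). Among the 36 pairs of members r ran from 0.506 for Samhd1 and Trex1 to 0.956 for Bst2 and Isg20, with a median of 0.856.

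Reads on the repeat families that restriction factors act against were counted in the same libraries, as a percentage of gene and repeat counts. In wild-type BMDCs L1 (LINE-1) repeats made up 0.589% at 0 h, 0.680% at 2 h and 0.738% at 4 h, and the 4 h difference passed an exact two-sided permutation test (adjusted p = 0.026 over 8 tests) while that at 2 h did not (adjusted p = 0.312). ERV1 repeats made up 0.219%, 0.412% and 0.436% (exact permutation, adjusted p = 0.00577 at both times). ERVK repeats made up 0.469%, 0.531% and 0.601% (adjusted p = 0.291 and 0.00577, exact permutation), and ERVL repeats 0.124%, 0.123% and 0.119% (adjusted p = 0.900 and 0.601, exact permutation). So by this share, 3 of the 4 families were above 0 h at 4 h in wild type and ERVL was not. The share was taken without TMM factors, unlike the levels of the members, so the 2 are not on the same scale. In wild type those factors were 1.15 to 1.25 at 0 h and 0.721 to 0.828 at 4 h. Whether ERVL would differ under TMM scaling was not tested. In TrifKO libraries the shares at 0, 2 and 4 h were 0.652%, 0.647% and 0.689% for L1 and 0.239%, 0.415% and 0.425% for ERV1. For ERVK they were 0.490%, 0.459% and 0.482% there. ERV1 went from 0.586% at 0 h to 1.11% at 2 h in RAW264.7 cells with the control guide. These differences outside wild type, and any link of the repeats to the members, were not tested. The L1 call at 4 h was lost without any one of 6 libraries, at 0 h those of cohorts 1 and 2 in the lower library-number range and at 4 h both of cohort 1 and those of cohorts 2 and 3 in the higher range (adjusted p = 0.0519 to 0.0563 by exact permutation). The ERVK difference at 2 h passed without the 2 h library of cohort 1 in the lower range (adjusted p = 0.019, exact permutation). Such reads include repeats within genes' transcripts.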

How the data were processed

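The authors deposited 1 table of raw gene counts and 1 of raw counts per repeat copy for the series. The submitters' processing notes name STAR, HOMER, DESeq2 and the build mm10, without versions. RNA was polyadenylated and libraries were stranded, per the labels. The deposited count values were used as they stand, and 0 columns were left out. The 9 genes, the lists and the tests were chosen with earlier results of these data known.

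In R 4.3.3, each experiment was fitted alone with edgeR 4.0.16 (filterByExpr, TMM, 1 term per group, quasi-likelihood test), with Benjamini-Hochberg adjustment over all genes tested and a threshold of 0.05. Levels are CPM on library sizes scaled by TMM factors, and were summarised in Python 3.11.15 with pandas 2.3.3. The fit was tested on simulated data. Depth was 36879570 to 95292653 gene counts per library. Of the 88 pairs of libraries within a group, none agreed within sampling noise, and pairs across groups were not compared. Gene positions and exon lengths came from GENCODE release 21.

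All 9 members were named in the main comparisons, and of each other list the largest called changes in wild type at 4 h. One gene of these is not reported here. Other settings tried were a fit of only the groups being compared, testing every gene regardless of its counts, DESeq2 1.42.0, library-number ranges, wild-type libraries of one cohort summed, a replicate block and leaving out each library. Added after seeing the data were total counts without TMM factors, the cohort within its library-number range as a block, and no TrifKO library of cohort 3. Same-numbered cohorts deviated together in experiment 2 (mean correlation of their residuals 0.451, lowest 0.268) and not throughout in experiment 3 (lowest -0.413) or 5 (lowest 0.00341), so the number was taken to pair libraries in experiment 2 alone.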

Additional observations from a re-analysis of the deposited data

Results flagged for a closer look

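The response to LPS differed between genotypes, by the test of the difference itself, for all 9 genes at 1 time or both. On the log2 scale, the response in libraries labelled TrifKO minus that in wild type at 4 h was -2.66 for Samhd1, -1.24 for Apobec3, -2.02 for Trex1, -2.84 for Mov10, -1.21 for Zc3hav1, -1.61 for Bst2, -5.37 for Isg20, -4.68 for Rsad2 and -1.53 for Ifitm3. At 2 h it was -2.03 for Trex1, -2.82 for Isg20 and -4.89 for Rsad2. In MyD88KO cells the response of Ifitm3 at 4 h differed from that in wild type by -0.80, a call that did not hold within the library-number range of the MyD88KO libraries. Ticam1 was near 0 in only 1 TrifKO library at each stimulated time. A library far from the others was looked for in 27 sets of values, 1 per gene and wild-type group of experiment 3. Of these sets 0 had one, where chance gives about 1 in 20. Those were the only groups of 4 or more libraries, so no knockout, experiment 2 or RAW264.7 group was examined.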

How the results depend on the processing

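Of 231 counts and repeat shares under the alternatives, 201 stayed within 1.5 times the main count or on the same side of the threshold. Direction did change for TrifKO against 0 h: without TMM factors the 2 called at 2 h were lower in place of higher, and 1 lower joined 4 higher at 4 h. Numbers below are members called. For most of them, and for the counts without single libraries in the results above, the share of all genes called in the same fit is not given. A changed count is therefore not by itself a change particular to the members. Of 2 for TrifKO at 2 h against 0 h, 1 was called without a filter on low counts, 4 with only the compared groups (3 higher and 1 lower) and 1 without cohort 3. Of 7 for MyD88KO against wild type, 3 were called without TMM factors at 2 h and 3 at 4 h, 0 within the library-number range at either time, and 0 with only the compared groups at 2 h. The 1 interaction call for MyD88KO at 4 h became 0 under each of these. Only the compared groups gave 2 in place of 7 for TrifKO against wild type at 2 h, 1 in place of 2 for IfnarKO without Suv39h1, and 1 in place of 2 for gRNA_2 at 2 h. The 3 interaction calls for TrifKO at 2 h became 5 within the higher library-number range and with summed wild-type libraries, which also gave 1 in place of 0 for TrifKO at 4 h against 2 h. DESeq2 gave 3 in place of 1 for IfnarKO with Suv39h1 and 2 in place of 1 for gRNA_1 at 0 h. For gRNA_2 at 0 h 1 of 2 was called without a filter and 1 without TMM factors. The ERVL share of repeat counts alone was lower in wild type, by exact permutation, at 2 h (-0.29, adjusted p = 0.00346) and 4 h (-0.50, adjusted p = 0.00346). The cause of these shifts was not tested.

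With the replicate block, IfnarKO gave 2 with Suv39h1 and 4 without it, gRNA_1 gave 3 at 0 h and 4 at 2 h, and the cohort within its library-number range as a replicate block gave 2 for the MyD88KO interaction at 4 h, 5 for the TrifKO interaction at 2 h and 2 for TrifKO at 4 h against 2 h. In experiments 3 and 5 not every pair passed the pairing check, although in experiment 3 the residuals of same-numbered MyD88KO libraries correlated at 0.589 on average (different numbers -0.288).

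Leaving out 1 library at a time gave 0 to 2 for IfnarKO with Suv39h1 and 1 to 2 without it, 0 to 2 and 2 to 5 for TrifKO at 2 and 4 h against 0 h, 2 to 8 and 4 to 7 for MyD88KO against wild type at 2 and 4 h, 4 to 7 for TrifKO against wild type at 2 h, 0 to 1 for the MyD88KO interaction at 4 h, 3 to 5 for the TrifKO interaction at 2 h, 0 to 1 and 2 to 4 for gRNA_1 at 0 and 2 h, and 1 to 3 for gRNA_2 at both. The L1 difference at 4 h was 0.117 to 0.171 percentage points and did not pass without any one of 6 libraries. The ERVK difference at 2 h was 0.0409 to 0.0976. Depth was lowest for Rsad2 and Isg20 in RAW264.7 cells, with counts down to 14 and 35.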
